A study of Homo sapiens with 15 samples.

Results

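The degrader dCBP-1 was compared with the catalytic inhibitor A-485 by 3′ mRNA sequencing in MM.1S, a human cell line grown from multiple myeloma, after 6 h of treatment at 100 nM of either compound. The comparison used 6 of the 15 libraries of the study, 3 of dCBP-1 and 3 of A-485, and took every gene of the table on the log2(normalized read count + 1) scale. The other 9 libraries were 3 of A-485 and GNE-781 together (100 nM of each), 3 of the bromodomain inhibitor GNE-781 at 100 nM and 3 of DMSO, all for 6 h. They served as reference points and entered the same model, so each test used a spread shared by all 5 groups. All groups were of this single line, which carries a translocation that places MAF next to the immunoglobulin heavy chain locus. The labels do not say whether the libraries of a group came from separate cultures, so the p-values below measure the spread between these libraries, which may be technical.

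CBP (gene CREBBP) and p300 (gene EP300) are paralogous lysine acetyltransferases that act as coactivators at enhancers, where they acetylate histone H3 and bring in other regulators. Each has a catalytic domain, which A-485 occupies in competition with acetyl-CoA, and a bromodomain, which binds acetylated lysines and is the site of GNE-781. dCBP-1 joins a GNE-781-type bromodomain ligand to a cereblon ligand, so that both proteins are marked for proteasomal degradation and all of their domains are lost together, whereas A-485 leaves the proteins in place. Myeloma cells are malignant plasma cells that depend on a small circuit of enhancer-driven regulators, among them IRF4, MYC, PRDM1 and, in lines with the translocation, MAF.

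The 3 dCBP-1 libraries held 16096393, 18078838 and 13103114 reads, and the 3 A-485 libraries held 16370457, 16661669 and 17581259. Mitochondrially encoded transcripts took 14.34 to 15.06% of the reads in dCBP-1 libraries and 15.02 to 16.12% in A-485 libraries. In DMSO replicates 1, 2 and 3 they took 23.07, 19.73 and 16.41%, and genes with a read numbered 16557, 17585 and 19927. Within each group the third library stood furthest from the other two in dCBP-1 (chi-square per degree of freedom 24.472 and 28.018 for the pairs that include it, against 5.612 for the remaining pair), and A-485 pairs lay between 10.964 and 17.682. DMSO pairs lay between 17.696 and 46.532, and the differences from DMSO below rest on these uneven libraries. The 10 plasma cell markers, all detected, summed to 26089 to 27719 in dCBP-1 libraries and 51996 to 65704 in A-485 libraries, so the labelled cell type showed its markers in all 6. Markers of T and NK cells summed to 14.5 to 17.7 in dCBP-1 libraries and 19.8 to 30.3 in A-485 libraries, with CD3D, CD5 and NKG7 at 0 in all 6, and those of monocytes and macrophages to 35.6 to 49.4 in dCBP-1 libraries and 40.4 to 75.1 in A-485 libraries, with CSF1R, FCGR1A and S100A8 at 0. Of the 4 T and NK markers tested, 1 was called lower (GNLY, at 1.19 to 2.42 in dCBP-1 and 9.25 to 13.8 in A-485 libraries). The other 3 were not called, and the median log2 fold change of the 4 was 0.4. In bulk RNA, fewer cells of a kind and less RNA per cell cannot be told apart.

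dCBP-1 and A-485 differed at 3947 of 16104 genes tested (24.5%; limma, Benjamini-Hochberg adjusted p below 0.05). Of these, 2077 genes were higher in dCBP-1 (12.9% of the genes tested) and 1870 were lower (11.6%). The lower calls were the more numerous with TMM scaling (1976 higher, 2478 lower), median-ratio scaling (2095 and 2430), edgeR (2158 and 2398) and DESeq2 (2277 and 2498), and without A-485 replicate 3 the higher calls numbered 1264 and the lower 1796. In 6295 genes (39.1%) the 3 dCBP-1 libraries all lay on one side of the 3 A-485 libraries. Large falls were more frequent than large rises: 864 genes were at least 2 fold lower in dCBP-1 (5.37%) and 551 at least 2 fold higher (3.42%), while 279 were at least 4 fold lower and 128 at least 4 fold higher. Beyond 16 fold there were 13 falls and 2 rises, EGR1 and the actin pseudogene ACTG1P25, whose reads could belong to near-identical actin copies. Among the 4026 genes with the highest levels, 231 were called at least 2 fold lower and 15 at least 2 fold higher, whereas among 4026 genes with mean levels from 17.1 to 179.4 normalized reads 296 were lower and 338 were higher by this measure. The median difference over all genes was 0.075 on the log2 scale, with a median standard error of 0.214. For 8329 genes (51.7%) the 95% interval of the difference lay within 1 log2 unit either way, and for 2639 (16.4%) within 0.5. A further 5236 genes were not called although their interval reached 1 log2 unit, so a 2 fold difference was not excluded for them at this depth and replication.

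**Figure D1:**
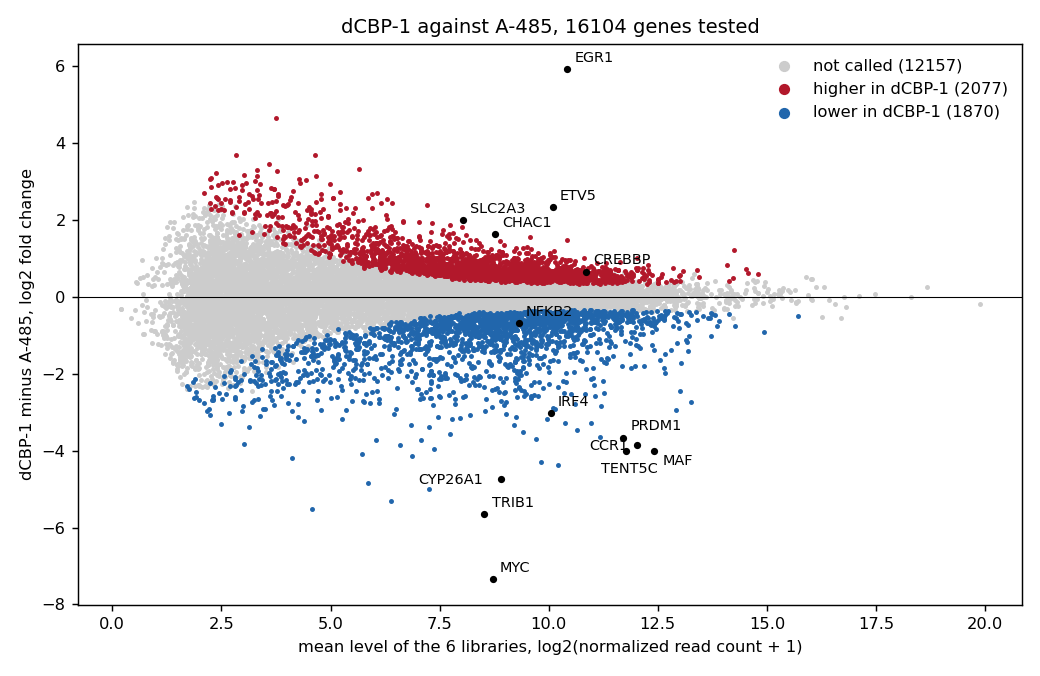
Each point is a gene, with its mean level over the 3 dCBP-1 and 3 A-485 libraries on the x axis (log2 of the normalized read count + 1) and the dCBP-1 minus A-485 log2 fold change on the y axis. Red and blue mark the 2077 genes called higher and the 1870 called lower in dCBP-1, with MYC at -7.34 and EGR1 at 5.91 as the lowest and highest points.

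MYC, which encodes the growth-promoting transcription factor, was at 7.45, 5.65 and 1.19 normalized reads in dCBP-1 libraries, against 1095, 588 and 816 in A-485 libraries and a mean of 1448 ± 246 in DMSO libraries (SD, n = 3). The dCBP-1 values rested on 8, 7 and 1 reads, so nearly all MYC signal was gone there, and no dCBP-1 library came near an A-485 library. The fitted difference was -7.34 ± 0.33 on the log2 scale (SE; adjusted p = 9.8e-17, limma), and it ranged from -7.73 to -6.44 over the alternative settings, the first without dCBP-1 replicate 1 and the second with a pseudocount of 5. A-485 differed from DMSO at MYC by -0.83, which was not called (limma adjusted p = 0.21). The percent of all genes called in A-485 against DMSO was 2.14%.

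Transcription factors that define myeloma and its plasma cell origin fell. Of 27 tested, 22 were lower in dCBP-1 than in A-485 and 0 were higher (limma adjusted p below 0.05; 1 was higher under 5 of the 19 alternative settings), with a median log2 fold change of -1.63 against 0.075 over all genes. Of all genes tested, 11.6% were lower and 12.9% higher. IRF4, the factor on which myeloma cells depend, had 284, 243 and 170 normalized reads in dCBP-1 libraries and 2364, 1631 and 1667 in A-485 libraries. The groups were far apart, and the difference was -3.03 ± 0.19 (limma adjusted p = 2.4e-13). PRDM1, which drives plasma cell differentiation by repressing B cell genes, had 578, 468 and 428 in dCBP-1 libraries and 7059, 5629 and 5909 in A-485 libraries, a log2 fold change of -3.66 ± 0.13 (adjusted p = 8.5e-19, limma). PRDM1 was also among the genes called in A-485 against DMSO, at -0.57 (limma adjusted p = 0.019). KLF13, a zinc finger factor, differed by -3.64 ± 0.15. POU2AF1, the B cell coactivator of octamer-binding factors, differed by -2.53 ± 0.15, with 453, 475 and 364 in dCBP-1 libraries and 2797, 2268 and 2385 in A-485 libraries. RUNX2 differed by -3.95 ± 0.22 and RUNX1 by -2.82 ± 0.20, both Runt-domain factors. XBP1, the secretory pathway regulator, fell less, by 1.64 ± 0.13 on the log2 scale. IKZF3 and IKZF1, the Ikaros family factors that cereblon degrades when bound by lenalidomide-type drugs, were lower by different amounts, at -2.66 ± 0.19 and -0.84 ± 0.14.

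**Figure D2:**
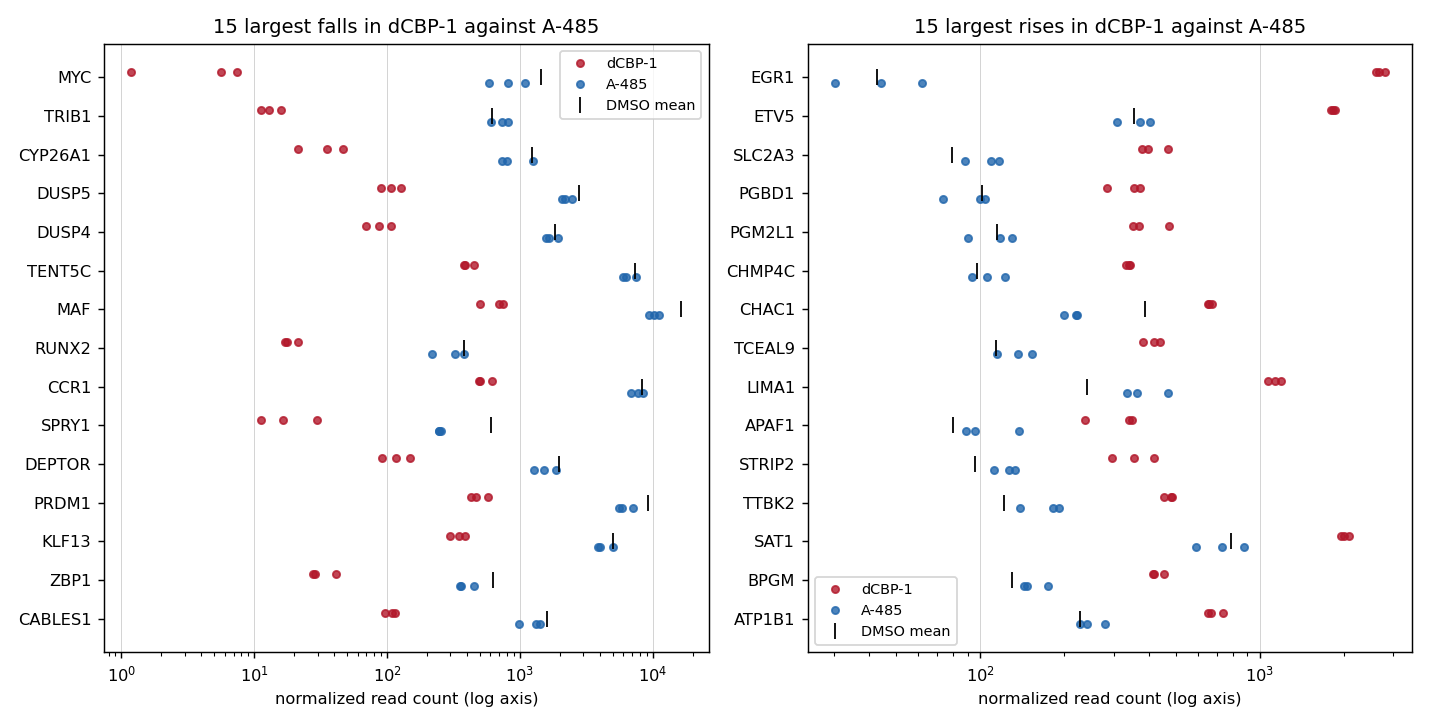
Normalized read counts on a log axis for the 15 genes with the largest falls (left) and the 15 with the largest rises (right) in dCBP-1 against A-485, chosen among genes at or above the median level whose libraries do not overlap. Red points are the 3 dCBP-1 libraries, blue points the 3 A-485 libraries and black ticks the DMSO mean, and no red point overlaps a blue point of the same gene.

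MAF, the basic leucine zipper factor that the translocation activates in this line, had 694, 751 and 502 normalized reads in dCBP-1 libraries and 11187, 9390 and 10179 in A-485 libraries. Its log2 fold change was -4.0 ± 0.14 (limma adjusted p = 7.7e-19), with A-485 already below DMSO by 0.68 (limma adjusted p = 0.01). The MAF promoter is shown because its fall was among the largest and because it was the only promoter of the 15 falls, among the 9 genes found in the RefSeq table, that held the palindromic cyclic AMP response element TGACGTCA, the site to which CREB, the factor CBP is named for, can bind. The window runs from 250 bases before to 50 after the RefSeq start, chr16:79600688-79600987 on the minus strand of GRCh38.p14, written 5′ to 3′ with the element in capitals, from 45 to 38 bases before the start.
MAF: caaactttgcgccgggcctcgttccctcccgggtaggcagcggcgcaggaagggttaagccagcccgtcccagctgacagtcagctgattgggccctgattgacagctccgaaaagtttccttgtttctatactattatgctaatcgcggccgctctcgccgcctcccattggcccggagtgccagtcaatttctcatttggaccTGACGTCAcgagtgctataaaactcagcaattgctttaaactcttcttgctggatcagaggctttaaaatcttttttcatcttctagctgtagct
The element reads the same on both strands and stood in 1.85% of 35116 RefSeq promoters of this length, and a match in letters is a description of the sequence only. The promoters were also searched for TGANTCA (N is any base) and the E-box CACGTG. These matched in 3 and 2 of the 9 falls with a promoter, and in 0 of the 12 rises with one. They stood in 7.71% and 7.26% of the 35116 promoters. These shares are per promoter, whereas a gene counted as matched if any of its promoters held the site. Alternative promoters were found for CABLES1, RUNX2, SPRY1, PRDM1 and CYP26A1 among the falls and for LIMA1 among the rises. The counts of genes and the shares of promoters are therefore unlike measures.

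In a list of MAF family members and genes known to be driven by MAF in myeloma, the lower calls outnumbered the higher. Of 13 tested, MAF included, 7 were lower and 1 was higher in dCBP-1 (limma adjusted p below 0.05), with a median of -1.81. The same calls took 11.6% (lower) and 12.9% (higher) of all genes tested. CCND2, the D-type cyclin of MAF-translocated myeloma, had 2301, 2320 and 3060 in dCBP-1 libraries against 15724, 14186 and 12023 in A-485 libraries, a difference of -2.45 ± 0.15. DEPTOR, an mTOR-binding inhibitor, differed by -3.70 ± 0.17. The kinase gene NUAK1 differed by -1.81 ± 0.16, and CCR1, a chemokine receptor, by -3.84 ± 0.13 with 619, 494 and 499 in dCBP-1 libraries against 8481, 7788 and 6901 in A-485 libraries.

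Surface and secretory genes of plasma cells were mostly lower. Of 35 tested, 21 were lower and 1 was higher in dCBP-1 (0 higher without dCBP-1 replicate 2 or 3, or without A-485 replicate 2 or 3), with a median of -0.69. Lower and higher calls made up 11.6% and 12.9% of all genes tested. TNFRSF17, which encodes BCMA, had 356, 445 and 324 in dCBP-1 libraries and 3874, 3907 and 3089 in A-485 libraries, a log2 fold change of -3.27 ± 0.15 (adjusted p = 8e-17, limma). TNFRSF13B, which encodes TACI, another receptor for the survival factors BAFF and APRIL, differed by -2.80 ± 0.13. TENT5C, a poly(A) polymerase that stabilizes secretory mRNAs and is often mutated in myeloma, differed by -4.01 ± 0.16, with 454, 387 and 381 in dCBP-1 libraries and 7482, 6336 and 5968 in A-485 libraries. Further members, chosen after their values were seen, were the kinase PIM2 (-2.74 ± 0.17), the interleukin-6 receptor IL6R (-2.57 ± 0.14), CD28 (-2.52 ± 0.15), the integrin ITGA4 (-2.30 ± 0.16), the homing receptor CXCR4 (-2.20 ± 0.16) and syndecan SDC1 (-1.79 ± 0.12). CD38, the target of daratumumab, differed by -0.69 ± 0.15. JCHAIN, which links polymeric immunoglobulins, had 15132, 15722 and 15111 in dCBP-1 libraries and 23060, 16940 and 17626 in A-485 libraries, a difference of -0.31 ± 0.15 that was not called (limma adjusted p = 0.14, and 0.0089 with TMM scaling).

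Among negative regulators and outputs of the RAS-ERK pathway, the lower calls outnumbered the higher. Of 20 ERK phosphatases and feedback genes tested, 9 were lower and 3 were higher in dCBP-1, with a median of -0.51. Among all genes tested 11.6% were lower and 12.9% higher, and the higher count lies near that share. DUSP5, a nuclear phosphatase of ERK, had 128, 107 and 90.1 in dCBP-1 libraries and 2484, 2201 and 2070 in A-485 libraries, a difference of -4.38 ± 0.17 (limma adjusted p = 3.9e-18). DUSP4, a related nuclear phosphatase, differed by -4.29 ± 0.17. SPRY1, a Sprouty inhibitor of receptor tyrosine kinase signaling, had 29.8, 11.3 and 16.6 in dCBP-1 libraries and 256, 245 and 245 in A-485 libraries, a difference of -3.73 ± 0.25, with A-485 below DMSO by 1.28 (limma adjusted p = 0.0064). ETV5, an ETS factor induced by ERK, rose, with 1852, 1819 and 1797 in dCBP-1 libraries and 403, 374 and 308 in A-485 libraries. Its difference was 2.34 ± 0.16 (limma adjusted p = 6.5e-13). CCND1 was lower by 3.34 ± 0.21 on the log2 scale, at 18.6, 15.3 and 26.1 in dCBP-1 libraries and 228, 215 and 182 in A-485 libraries. SPRY4 was higher at low counts, with 11.2, 17.8 and 19.0 in dCBP-1 libraries and 1.03, 0 and 3.16 in A-485 libraries (3.03 ± 0.90, limma adjusted p = 0.012, and 0.069 without A-485 replicate 2).

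EGR1, an immediate early zinc finger factor that serum response factor and ETS partners induce after ERK signaling, was the gene with the largest rise. It had 2662, 2610 and 2801 normalized reads in dCBP-1 libraries against 61.7, 30.3 and 44.3 in A-485 libraries and a mean of 42.8 ± 16.6 in DMSO libraries (SD, n = 3). All dCBP-1 libraries were high and close together, and A-485 was not called against DMSO (0.09, limma adjusted p = 0.90). The difference between dCBP-1 and A-485 was 5.91 ± 0.24 (limma adjusted p = 9.2e-18). The EGR1 promoter is shown because of this rise, over chr5:138465229-138465528 on the plus strand of GRCh38.p14 from RefSeq, 5′ to 3′, with matches to the CArG box in capitals, the element bound by serum response factor, at 105 to 96 and 83 to 74 bases before the start.
EGR1: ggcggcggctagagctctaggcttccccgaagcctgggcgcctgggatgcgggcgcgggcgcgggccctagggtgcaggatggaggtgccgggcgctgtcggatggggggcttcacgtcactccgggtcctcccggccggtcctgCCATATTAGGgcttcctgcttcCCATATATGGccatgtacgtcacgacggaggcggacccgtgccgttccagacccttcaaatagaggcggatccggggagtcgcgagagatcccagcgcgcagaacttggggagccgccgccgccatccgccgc
CArG boxes (CC, then 6 bases of A or T, then GG, searched on both strands) stood in 1.29% of 35116 RefSeq promoters of the same length. Among the 15 rises, 12 had a promoter in the table and only that of EGR1 held a match, and among the 15 falls, 9 had one and 0 held a match.

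The immediate early genes did not move as a group. Of 32 tested, 13 were lower and 7 were higher in dCBP-1, and the median was -0.19. For all genes tested the shares were 11.6% lower and 12.9% higher. TRIB1, a pseudokinase that brings substrates to the ubiquitin ligase COP1, had 15.8, 11.3 and 13.0 in dCBP-1 libraries and 822, 736 and 610 in A-485 libraries, a difference of -5.65 ± 0.18 (limma adjusted p = 7.1e-20). A-485 was not called against DMSO at TRIB1 (0.23, limma adjusted p = 0.59). FOS, IER2 and JUN, chosen after their values were seen, were higher in dCBP-1, by 1.57 ± 0.27, 1.52 ± 0.23 and 0.81 ± 0.14. FOS itself had 196, 229 and 147 in dCBP-1 libraries and 103, 43.1 and 55.4 in A-485 libraries. ZFP36L2 and ZFP36, which bind AU-rich elements and speed mRNA decay, were lower by 2.12 ± 0.17 and 1.75 ± 0.37 on the log2 scale. KLF6 and ID2 were lower as well, at -1.63 ± 0.13 and -1.55 ± 0.15. SRF, which encodes serum response factor, had 1112, 1115 and 2255 in dCBP-1 libraries and 950, 1103 and 465 in A-485 libraries. Its difference of 0.84 ± 0.26 (limma adjusted p = 0.015) lost its call without dCBP-1 replicate 3 (0.50, limma adjusted p = 0.16) or without A-485 replicate 3 (0.46, limma adjusted p = 0.22). Of the immediate early genes called higher, 6 had a promoter in the RefSeq table, and CArG boxes stood in 2 of these genes (EGR1 and SRF). They stood in 0 of 9 genes called lower and in 0 of 11 not called. A gene counted if any of its promoters matched, and SRF also had a promoter without a match. Sites outside the window were not searched.

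**Figure D3:**
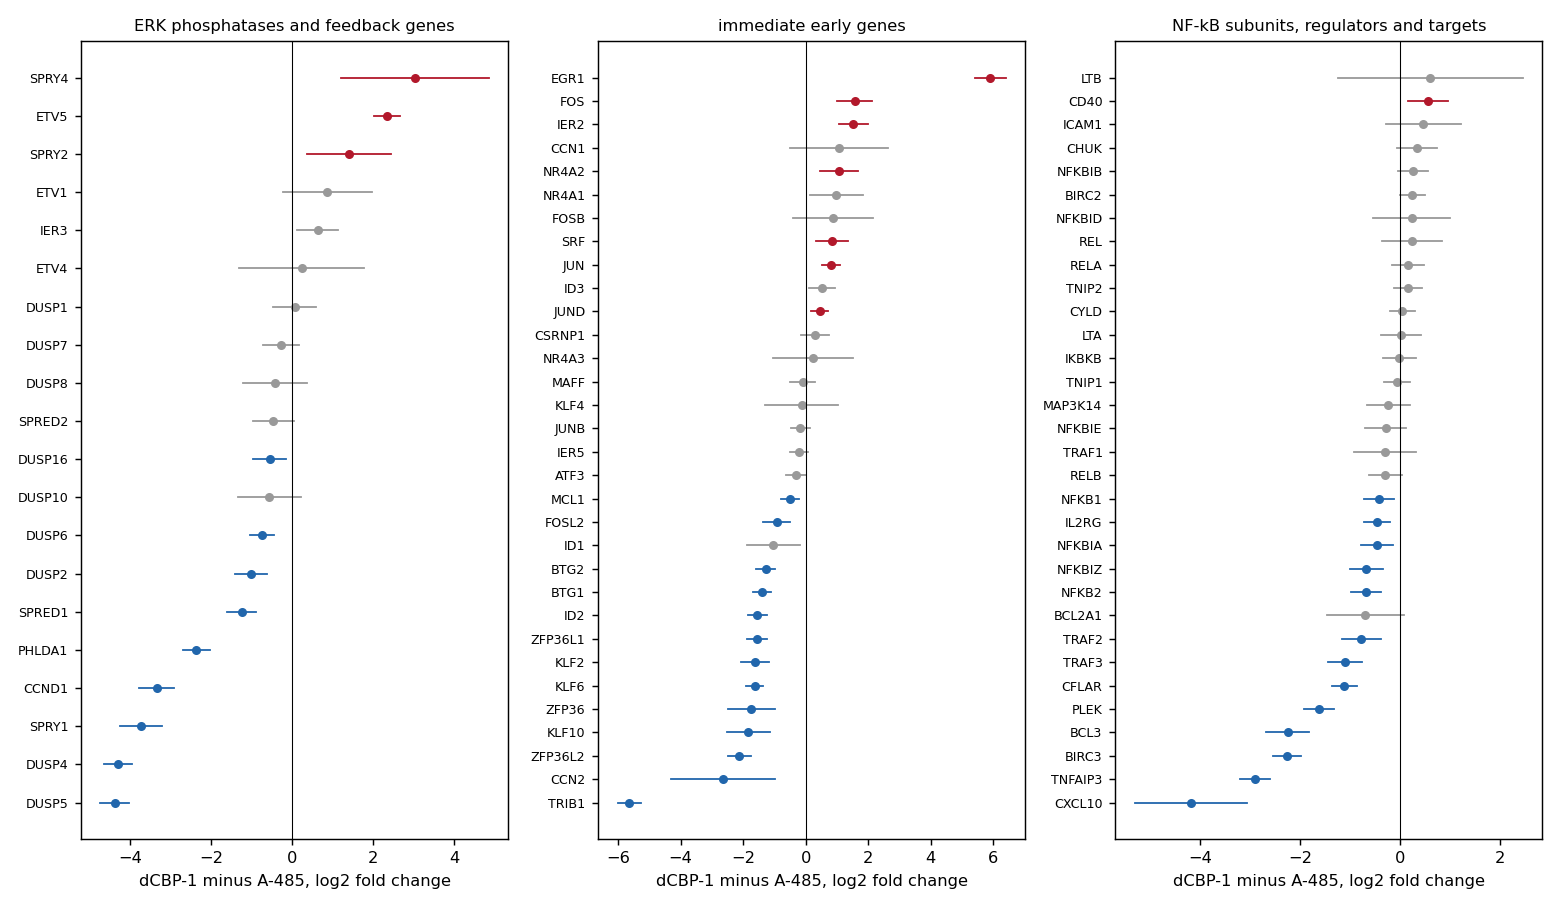
Log2 fold changes of dCBP-1 minus A-485 (x axis) with 95% intervals for the tested members of 3 gene lists, ordered by size. Red members were called higher in dCBP-1, blue ones lower and grey ones not called: EGR1 and TRIB1 stand at opposite ends of the immediate early genes, and DUSP5 and DUSP4 at the low end of the ERK genes.

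The other genes with large rises belong to varied processes, and their folds were smaller than those of the falls. After EGR1 and ETV5, the 13 remaining named rises lay between 1.46 ± 0.17 (ATP1B1, a sodium pump subunit) and 1.99 ± 0.20 (SLC2A3, the glucose transporter GLUT3). SLC2A3 had 399, 380 and 470 in dCBP-1 libraries and 109, 117 and 87.8 in A-485 libraries. CHAC1, a glutathione-degrading enzyme of the amino acid stress response, had 656, 675 and 653 in dCBP-1 libraries and 221, 220 and 200 in A-485 libraries, around a DMSO mean of 389 ± 35.9 (SD, n = 3). The compounds therefore lay on opposite sides of DMSO at CHAC1: dCBP-1 minus A-485 was 1.63 ± 0.15 (limma adjusted p = 8.5e-10), and A-485 minus DMSO was -0.86 (limma adjusted p = 0.0021). APAF1, the scaffold of the apoptosome, had 350, 339 and 237 in dCBP-1 libraries and 138, 95.5 and 88.6 in A-485 libraries (1.52 ± 0.33, limma adjusted p = 0.00075). SAT1, a polyamine acetyltransferase, differed by 1.47 ± 0.14, and BPGM, a red cell glycolytic enzyme also present elsewhere, by 1.47 ± 0.19. LIMA1, an actin-binding protein, differed by 1.55 ± 0.17 and was the only 1 of these 15 rises that was also called higher in A-485 than in DMSO (0.71, limma adjusted p = 0.022). The others were PGBD1 (1.86 ± 0.20), PGM2L1 (1.81 ± 0.21), CHMP4C of the membrane-scission machinery (1.65 ± 0.19), TCEAL9 (1.62 ± 0.23), STRIP2 (1.5 ± 0.25) and the tau-tubulin kinase TTBK2 (1.48 ± 0.18).

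Among NF-kB genes, the non-canonical subunit NFKB2 was lower in A-485 than in DMSO and lower again in dCBP-1. NFKB2 had 511, 454 and 491 in dCBP-1 libraries and 685, 715 and 946 in A-485 libraries, against a DMSO mean of 1998 ± 364 (SD, n = 3). A-485 was below DMSO by 1.35 on the log2 scale (adjusted p = 7.9e-06, limma), and dCBP-1 was below A-485 by 0.67 ± 0.15 (limma adjusted p = 0.001). Over the list of 32 NF-kB subunits, regulators and targets, 13 were lower and 1 was higher in dCBP-1 (0 higher without dCBP-1 replicate 2 or 3 or A-485 replicate 2 or 3, and 2 without A-485 replicate 1), with a median of -0.29. In all genes tested 11.6% were lower and 12.9% higher. TNFAIP3, the ubiquitin-editing inhibitor A20, had 314, 228 and 237 in dCBP-1 libraries and 2077, 1799 and 1911 in A-485 libraries, a difference of -2.90 ± 0.15 (limma adjusted p = 1e-15), without a call in A-485 against DMSO (-0.27, limma adjusted p = 0.39). BIRC3, an inhibitor of apoptosis protein, differed by -2.26 ± 0.14, BCL3, an atypical member of the IkB family, by -2.25 ± 0.21 and PLEK by -1.62 ± 0.14.

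Regulators of cell death were lower or not called for the most part. Of 16 BCL2 family genes tested, 6 were lower and 1 was higher in dCBP-1 (0 without dCBP-1 replicate 1), with a median of -0.38. The protective BCL2 had 229, 174 and 170 in dCBP-1 libraries and 1141, 1010 and 894 in A-485 libraries (-2.41 ± 0.15, limma adjusted p = 9.8e-14), and BCL2L1, which encodes BCL-XL, had 199, 208 and 215 in dCBP-1 libraries and 972, 981 and 1261 in A-485 libraries (-2.36 ± 0.17). The BH3-only killers BMF and BCL2L11 were also lower, at -2.10 ± 0.17 and -1.10 ± 0.14. MCL1, the family member on which plasma cells rely most, differed less, by -0.49 ± 0.14 (limma adjusted p = 0.01), and it was not called without dCBP-1 replicate 3 (limma adjusted p = 0.078) or A-485 replicate 1 (limma adjusted p = 0.082). Of 29 p53 targets, 8 were lower and 3 were higher (5 higher without A-485 replicate 1), with a median of 0.01. The shares over all genes tested were 11.6% lower and 12.9% higher. TP53INP1 was lower by 2.48 ± 0.16 on the log2 scale, the nuclease AEN by 1.67 ± 0.17, BTG2 by 1.28 ± 0.15 and SESN1 by 1.04 ± 0.18, while BAX had 148, 174 and 153 in dCBP-1 libraries and 166, 206 and 256 in A-485 libraries and was not called (-0.38 ± 0.21, limma adjusted p = 0.19).

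**Figure D4:**
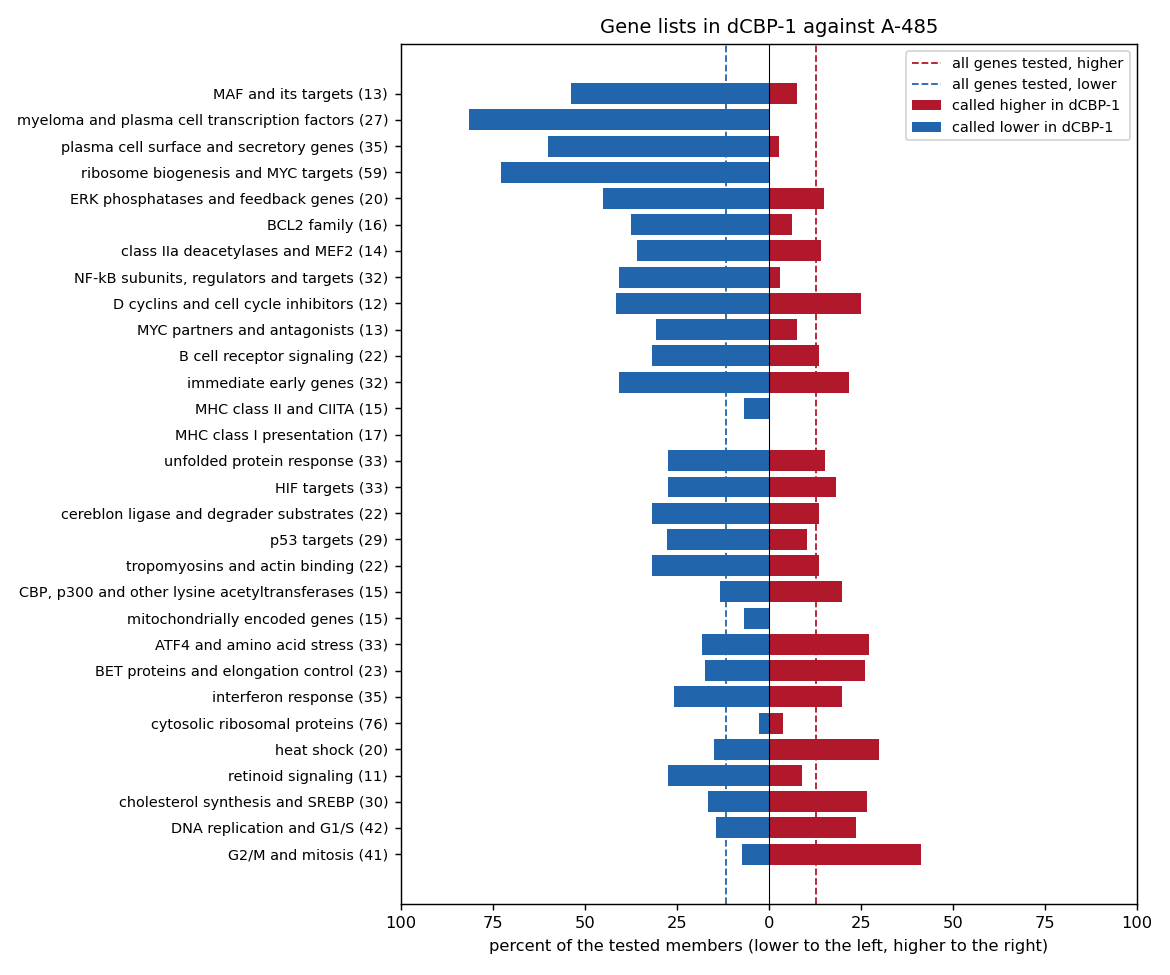
Percent of the tested members of each gene list called lower (blue, to the left) and higher (red, to the right) in dCBP-1 against A-485, with the number tested in parentheses and lists ordered by median log2 fold change. Dashed lines give the same shares over all 16104 genes, 11.6% lower and 12.9% higher.

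Genes of ribosome assembly, many of them known MYC targets, were lower in dCBP-1. Of 59 tested, 43 were lower and 0 were higher, with a median of -0.63, beside 11.6% lower and 12.9% higher over all genes. RRS1, an assembly factor of the large ribosomal subunit, had 157, 163 and 218 in dCBP-1 libraries and 814, 776 and 704 in A-485 libraries (-2.10 ± 0.20). PPAN differed by -1.84 ± 0.17, PPRC1 by -1.75 ± 0.16, NOP16 by -1.66 ± 0.15 and WDR43 by -1.54 ± 0.13. POLR1A and POLR1B, the core subunits of RNA polymerase I, differed by -1.19 ± 0.15 and -1.22 ± 0.14. Cytosolic ribosomal protein genes did not share this pattern: of 76 tested, 2 were lower and 3 were higher, with a median of 0.08, and the 3 higher calls (RPL13A, RPL26 and RPL31) rested on dCBP-1 replicate 3 and A-485 replicate 3, since 0 were higher without either. The higher count was 5 without dCBP-1 replicate 1 and 8 without A-485 replicate 1, and the lower count was 0 to 2 with 1 library left out. Ribosomal protein genes have many near-identical copies in the genome that could share their reads. MYC partners and antagonists differed from each other. MNT, a repressor that pairs with MAX, was lower by 1.23 ± 0.18 on the log2 scale and MXI1 by 0.60 ± 0.16 (limma adjusted p = 0.0066, and 0.068 without A-485 replicate 1), whereas MXD1, another such repressor, was higher, with 513, 534 and 415 in dCBP-1 libraries and 214, 168 and 170 in A-485 libraries (1.40 ± 0.17, limma adjusted p = 2.5e-07).

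Cell cycle genes moved in both directions. D-type cyclins and their kinase were lower for CCND1 and CCND2 (above) and for CDK6, which had 803, 741 and 590 in dCBP-1 libraries and 3774, 3146 and 3554 in A-485 libraries (-2.30 ± 0.15, limma adjusted p = 7.3e-13), while CCND3 was higher, with 908, 872 and 835 in dCBP-1 libraries and 598, 580 and 486 in A-485 libraries (0.66 ± 0.14, limma adjusted p = 0.0005). Of 41 genes of the G2/M and mitosis list, 17 were higher and 3 were lower in dCBP-1, with a median of 0.33, which was the highest median of the lists that are not markers. The higher count was 10 without dCBP-1 replicate 1, 11 without A-485 replicate 2 and 10 without A-485 replicate 3. CDC25C, the phosphatase that activates CDK1, had 635, 603 and 590 in dCBP-1 libraries and 285, 324 and 252 in A-485 libraries (1.09 ± 0.15, limma adjusted p = 1.8e-06). The kinetochore genes NDC80 and SPC25 differed by 1.04 ± 0.17 and 0.89 ± 0.17, NUSAP1 by 0.76 ± 0.13, CDK1 by 0.63 ± 0.14 and AURKA by 0.60 ± 0.16. Of 42 DNA replication and G1/S genes, 10 were higher and 6 were lower, with a median of 0.16, and E2F2 was lower by 0.97 ± 0.14 on the log2 scale. Over all genes tested, 12.9% were higher and 11.6% lower.

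Stress and lipid programs had calls in both directions. Some of the counts below lie near the shares over all genes tested, 11.6% lower and 12.9% higher. Of 33 unfolded protein response genes, 9 were lower and 5 were higher in dCBP-1, with a median of -0.10. The sensor ERN1 had 215, 213 and 211 in dCBP-1 libraries and 1125, 1024 and 875 in A-485 libraries (-2.23 ± 0.14, limma adjusted p = 1.3e-13), and HERPUD1 and SEL1L, which serve degradation of misfolded proteins, differed by -1.80 ± 0.17 and -1.21 ± 0.13. HSPA5, the chaperone BiP, was higher, with 30353, 28008 and 28671 in dCBP-1 libraries and 19371, 17337 and 16345 in A-485 libraries (0.72 ± 0.14, limma adjusted p = 0.0004). The 5 higher calls were 2 without dCBP-1 replicate 3 or without A-485 replicate 3, and 3 without dCBP-1 replicate 1 or without A-485 replicate 2. Of 33 ATF4 and amino acid stress genes, 9 were higher and 6 were lower (3 lower without A-485 replicate 1, and 10 with TMM scaling). Besides CHAC1, the cystathionine lyase CTH was higher by 1.53 ± 0.34, the serine synthesis enzyme PSPH by 0.87 ± 0.17 and asparagine synthetase ASNS by 0.80 ± 0.17, whereas the amino acid transporter SLC7A5 was lower by 1.12 ± 0.17 on the log2 scale. Of 30 cholesterol synthesis and SREBP genes, 8 were higher (4 without A-485 replicate 3) and 5 were lower (3 without A-485 replicate 2). HMGCS1, an early enzyme of cholesterol synthesis, was higher by 0.84 ± 0.16 and FASN, fatty acid synthase, by 0.69 ± 0.14.

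The mRNAs of the 2 drug targets were higher in dCBP-1, and these values do not measure the proteins. CREBBP had 2204, 1989 and 2630 in dCBP-1 libraries and 1701, 1477 and 1175 in A-485 libraries (0.65 ± 0.15, limma adjusted p = 0.0011). EP300 had 1419, 1342 and 2061 in dCBP-1 libraries and 1175, 983 and 1132 in A-485 libraries (0.53 ± 0.16, limma adjusted p = 0.016), and its call was lost without dCBP-1 replicate 3 (0.34, limma adjusted p = 0.16) or without A-485 replicate 2 (0.45, limma adjusted p = 0.086). Among 15 lysine acetyltransferases, 3 were higher and 2, KAT2A and KAT2B, were lower, at -0.55 ± 0.17 and -0.73 ± 0.22. Such counts are not far from the shares over all genes tested, 12.9% higher and 11.6% lower. Both lower calls were lost without dCBP-1 replicate 3 (limma adjusted p = 0.15 for KAT2A and 0.16 for KAT2B) and without A-485 replicate 1, and 4 members were lower with TMM scaling. Of 23 genes for BET proteins and elongation control, 6 were higher and 4 were lower. HEXIM1, the inhibitor of the elongation kinase P-TEFb, was higher by 0.95 ± 0.16, AFF4 of the super elongation complex by 0.75 ± 0.14 and BRD2 by 0.75 ± 0.14, while the elongation factor ELL was lower by 0.97 ± 0.14 on the log2 scale.

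Cereblon, the ligase receptor that dCBP-1 engages and A-485 does not, was itself at similar levels. CRBN had 577, 518 and 493 in dCBP-1 libraries and 523, 493 and 433 in A-485 libraries, a difference of 0.13 with a 95% interval of -0.15 to 0.42 (adjusted p = 0.54, limma). Among 22 genes of the cereblon ligase and degrader substrates, 7 were lower and 3 were higher (1 without A-485 replicate 2), with a median of -0.03. All genes tested gave 11.6% lower and 12.9% higher. Besides IKZF3 and IKZF1, the translation termination factor GSPT1 was lower by 0.96 ± 0.12 and the ubiquitin-conjugating enzyme UBE2G1 by 0.86 ± 0.14 on the log2 scale.

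The genes that A-485 lowered most clearly against DMSO were followed into dCBP-1. The 10 with the smallest p in A-485 against DMSO were all lower in A-485, by 0.81 (EPN1) to 1.49 (TYMP) on the log2 scale, and the A-485 libraries enter both differences, which are therefore given side by side only. Except at CHMP4B and PCDH1, replicate 3 was the lowest DMSO library at these genes, as at SF3A2 (1240, 1153 and 674). The differences from DMSO were not refitted with DMSO libraries left out. Compared with A-485, dCBP-1 was clearly lower still at PCDH1, a protocadherin, with 283, 234 and 231 in dCBP-1 libraries and 615, 613 and 549 in A-485 libraries against a DMSO mean of 1434 ± 346 (SD, n = 3). Its dCBP-1 minus A-485 difference was -1.25 ± 0.17 (limma adjusted p = 1.2e-06). CHMP4B, of the membrane-scission machinery, and PLEC, the cytoskeletal linker plectin, differed by -1.21 ± 0.14 and -1.17 ± 0.16. ARHGDIA differed by -0.47 ± 0.14 (limma adjusted p = 0.014), with the call lost under quantile normalization and without dCBP-1 replicate 3 or A-485 replicate 3 (limma adjusted p up to 0.097). EPN1 differed by -0.43 ± 0.12 (limma adjusted p = 0.01, and 0.08 without dCBP-1 replicate 3). TYMP, thymidine phosphorylase, was close to the threshold (-0.56 ± 0.21, limma adjusted p = 0.049), and its call was lost under 10 of the 19 alternative settings. ATF6B, SF3A2 and the linker histone gene H1-10 were not called in dCBP-1 against A-485, although SF3A2 was called lower under 4 of the 19 alternative settings. ATF6B had 452, 478 and 474 in dCBP-1 libraries and 415, 500 and 568 in A-485 libraries, with an interval of -0.38 to 0.25, and H1-10 differed by -0.22 with an interval of -0.52 to 0.08.

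**Figure D5:**
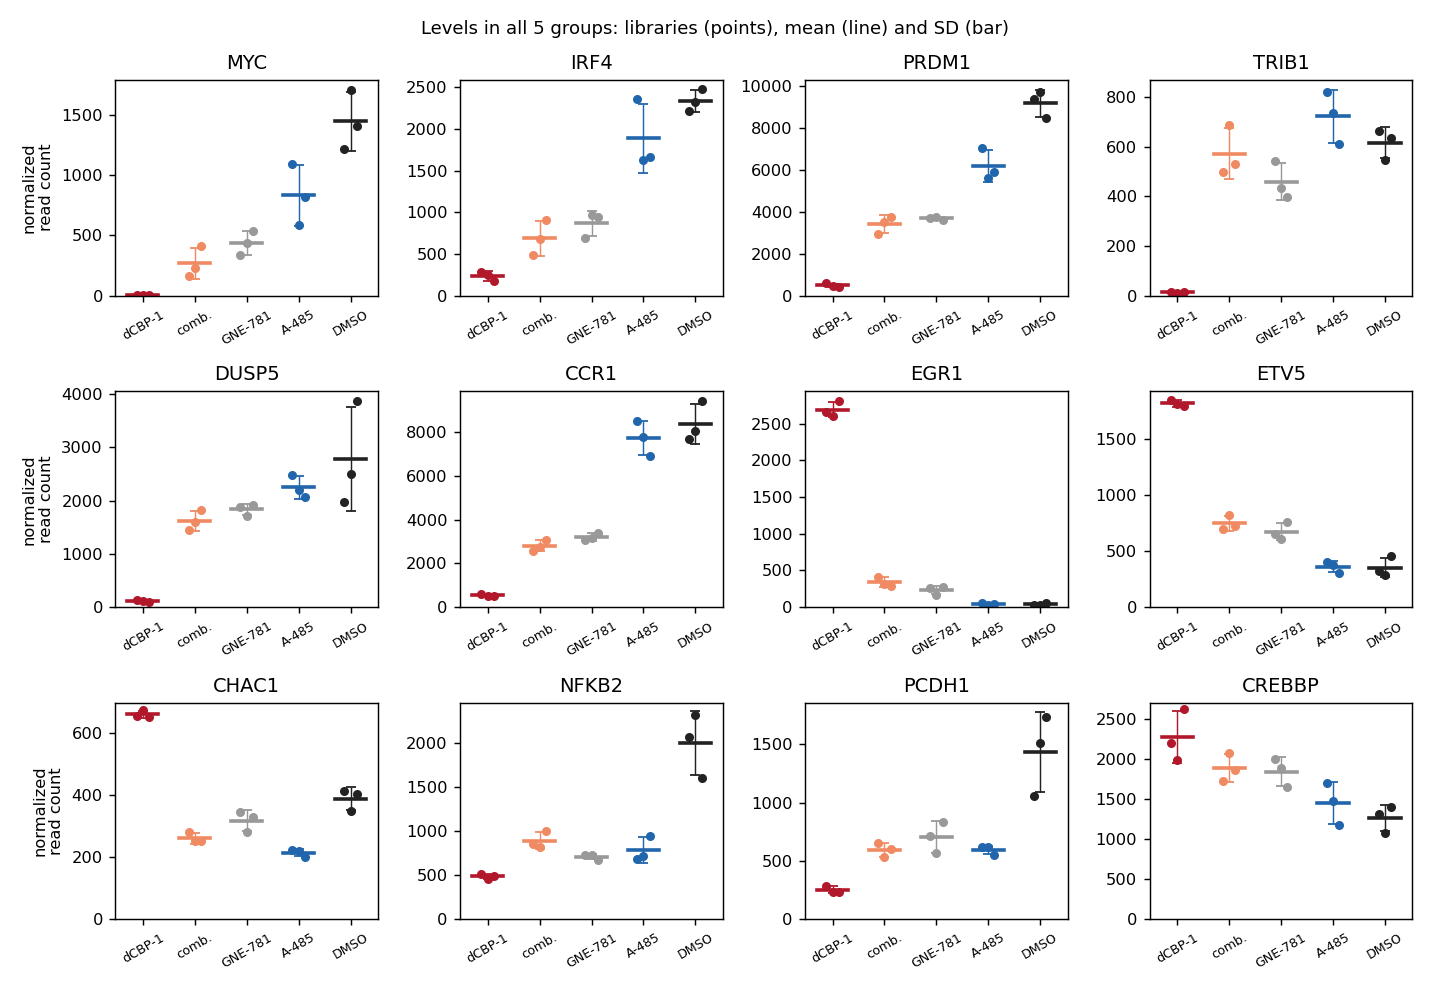
Normalized read counts of 12 genes in the 5 groups, from dCBP-1 on the left over the combination of A-485 and GNE-781, GNE-781 and A-485 to DMSO on the right. Points are libraries, lines are means and bars are SDs of 3 libraries: at MYC, IRF4, PRDM1 and CCR1 the means of the combination and of GNE-781 lie between those of dCBP-1 and A-485.

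The inhibitors that bind the bromodomain give a scale for these differences. Against the 24.5% of genes at which dCBP-1 differed from A-485, the combination of A-485 with GNE-781 differed from A-485 at 516 genes (3.2%) and GNE-781 at 161 genes (1.0%), and the 3 comparisons share the A-485 libraries. At CCR1 the combination was below A-485 by 1.47 on the log2 scale (adjusted p = 2.7e-08, limma), at IRF4 by 1.48 (limma adjusted p = 1.8e-05), at MYC by 1.70 (limma adjusted p = 0.003) and at TNFRSF17 by 1.5 (limma adjusted p = 2.2e-07). GNE-781 alone differed from A-485 by -1.27 at CCR1 (limma adjusted p = 1.1e-06), -1.12 at IRF4 (limma adjusted p = 0.0017) and -1.19 at TNFRSF17 (limma adjusted p = 1.9e-05). It was not called at MYC (-0.92, limma adjusted p = 0.22). At TRIB1 the combination was not called against A-485 (-0.34, limma adjusted p = 0.33), nor at DUSP5 (-0.47, limma adjusted p = 0.13) or RUNX2 (-0.69, limma adjusted p = 0.075). EGR1 averaged 2691 ± 98.5 normalized reads in dCBP-1, 339 in the combination, 233 in GNE-781 and 45.4 ± 15.7 in A-485 (SD, n = 3). The combination was above A-485 there by 2.91 (limma adjusted p = 1.5e-08) and GNE-781 by 2.35 (limma adjusted p = 1.1e-06). ETV5 was likewise higher in the combination than in A-485, by 1.06 (limma adjusted p = 0.00011), and CHAC1 was not called (0.28, limma adjusted p = 0.32).

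Antigen presentation genes were rarely called, apart from the class II transactivator. CIITA had 20.5, 11.3 and 5.93 in dCBP-1 libraries and 151, 193 and 188 in A-485 libraries, a difference of -3.86 ± 0.29 (limma adjusted p = 1.1e-11). It was the only 1 of 15 class II genes called, where 24.5% of all genes tested were called. Of the genes it drives, HLA-DRA had 6818, 7148 and 6035 in dCBP-1 libraries and 9729, 9113 and 6663 in A-485 libraries (-0.34 ± 0.15, limma adjusted p = 0.093), and it was called lower under 5 alternative settings, TMM scaling among them. CD74 differed by -0.15 with an interval of -0.43 to 0.13, and HLA-DRB1 by -0.14 with an interval of -0.41 to 0.13. Of 17 class I presentation genes, 0 were called in either direction (limma), and 0 to 3 were higher and 0 to 2 lower over the alternative settings. B2M had 29491, 32866 and 24609 in dCBP-1 libraries and 33040, 27592 and 37082 in A-485 libraries, an overlap with an interval of -0.54 to 0.20, and HLA-C had an interval of -0.30 to 0.18.

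The 5 genes named for their narrow intervals were chosen among intervals that include 0, so the absence of a call followed from the choice. The libraries of both groups did not overlap at any of them. MAPKAP1, an mTORC2 subunit, had 1792, 1763 and 1777 in dCBP-1 libraries and 1708, 1599 and 1573 in A-485 libraries, a difference of 0.13 with an interval of -0.11 to 0.36. IPO9, a nuclear import receptor, had an interval of -0.02 to 0.44, PPP2CA, the catalytic subunit of protein phosphatase 2A, one of -0.01 to 0.47, GSTK1 one of -0.03 to 0.45 and ATP6V0E1, a proton pump subunit, one of -0.43 to 0.05. For these 5 genes a difference of 2 fold lay outside the interval, which also follows from choosing narrow intervals that include 0. ATP6V0E1 was called lower with TMM scaling, median-ratio scaling, edgeR and DESeq2, and IPO9 and PPP2CA were called higher under quantile normalization.

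A rule for near absence (3 or fewer reads in every library of a group and 30 or more in every library of the other) named 3 genes, all low in dCBP-1. GRHL3, a grainyhead-like transcription factor, had 0 reads in all dCBP-1 libraries and 154 over the A-485 libraries, at 37.0, 42.2 and 56.9 normalized reads, so it was at least 15.5-fold lower with a floor of 3 reads per library. SCNN1G, a subunit of the epithelial sodium channel, had 9 reads over the dCBP-1 libraries and 369 over the A-485 libraries, a ratio of 0.026 with a 95% counting interval of 0.012 to 0.049. CXCL10, an interferon-induced chemokine, had 3 reads over the dCBP-1 libraries and 105 over the A-485 libraries, a ratio of 0.030 with an interval of 0.0061 to 0.090. These intervals cover counting error only. CYP26A1, which degrades retinoic acid, was low as well, with 35.4, 46.8 and 21.3 in dCBP-1 libraries and 1251, 734 and 795 in A-485 libraries (-4.73 ± 0.29, limma adjusted p = 8.3e-14). ZBP1, a sensor of Z-form nucleic acids, differed by -3.56 ± 0.21 and CABLES1, a CDK-associated protein, by -3.53 ± 0.14.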

How the data were processed

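The authors deposited 1 table of gene-level values, named normalized read counts, for 47459 Ensembl genes with a value in 15 libraries. Per the labels' protocols, RNA came from Trizol lysates to which ERCC spike-ins had been added, and libraries were made with a Lexogen QuantSeq 3′ mRNA kit, so a gene's reads do not scale with its length. The build was hg19, per the submitters' processing notes, and the aligner, counter and scaling are not given in the sources used here. The deposited signal is reads divided by 1 factor per library: 100% of values were whole multiples of a library's step (tolerance 0.01 of a read), and reads were recovered from it. Of the deposited rows, 0 were ERCC spike-ins. Whether the library factors account for a change in total mRNA per cell was therefore not tested.

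Values were tested as log2(value + 1) with limma 3.58.1 (R 4.3.3, trend, two-sided) in 1 model of 5 group means, among the 16104 genes that reached 5 in 3 or more libraries, with Benjamini-Hochberg adjustment over all of them. The test was tried on simulated data with known changes. A log2 fold change with this pseudocount understates changes of low genes. Alternatives were other scalings, pseudocounts, filters and fits, each dCBP-1 and A-485 library left out, and edgeR 4.0.16, which called 4556 genes on recovered reads, and DESeq2 1.42.0, which called 4775.

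Members and gene lists were chosen with earlier results of these data known. Named genes were the 15 largest called rises and falls with no overlap at or above the median level of 179.4, up to 4 members of each list with the smallest p (of the marker lists of other cell types, called members only), CREBBP, EP300, MYC, IRF4, EGR1 and NFKB2, genes nearly absent in 1 group, the 10 smallest p in A-485 against DMSO, and 5 genes with narrow intervals. The others were chosen after their values were seen, among them SPRY4, FOS, IER2, JUN, SRF, ZFP36, ID2, CRBN, MCL1, BAX, HSPA5, CTH, NUAK1, RRS1, POLR1A, POLR1B, CDK1, AURKA, RUNX1, CD74, HLA-DRB1, HLA-C and B2M. Some members that these rules name are not reported here. Symbols were found for 45779 IDs (96.5%). Promoters came from RefSeq (GRCh38.p14) and were matched by symbol, and no coordinate was converted from hg19. Chromosomal positions of the genes are not used here.

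The titles placed the samples in groups. The treatment field of 2 combination libraries gives other GNE numbers and the molecule field names genomic DNA, and both were taken as slips. Same-numbered libraries of dCBP-1 and A-485 did not deviate together (correlations -0.026, -0.066 and -0.117). The strand setting of the counting is not given in the sources used here, so reads of overlapping genes cannot be told apart.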

Additional observations from a re-analysis of the deposited data

How the results depend on the processing

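Against 3947 genes called, with 2077 higher and 1870 lower in dCBP-1, the alternatives gave 3056 to 4802, and 0 genes were called in both with opposite sign. Leaving out each dCBP-1 and A-485 library in turn gave 3056 to 3761 genes, of which 1264 to 2307 were higher and 1454 to 1796 lower. The count of higher genes was 1264 without A-485 replicate 3, which changed it by more than 1.5 times, and 2307 without A-485 replicate 1. TMM scaling gave 1976 higher and 2478 lower and moved the median difference by -0.076, median-ratio scaling gave 2095 higher and 2430 lower, edgeR 2158 higher and 2398 lower, and DESeq2 2277 higher and 2498 lower. The replicate number as a block gave 3624 genes (1882 higher, 1742 lower). A fit of only the dCBP-1 and A-485 libraries gave 4248 genes (2334 higher, 1914 lower). The numbers do not pair the libraries, and no dCBP-1 or A-485 library correlated best with its own number in the other group. ATF6B, which was not called, ranged from -0.19 to 0.04 with 1 library left out, against -0.07, and was positive without A-485 replicate 3. The scaling of the A-485 libraries is a limit: their median-ratio factors relative to the deposited ones were 1.061, 0.95 and 0.874, against 1.013, 1.003 and 0.991 in dCBP-1, so small differences move with that choice. With 3 libraries a group from 1 line, 1 dose and 1 time, the calls speak for these libraries. The cause of the spread in A-485 was not tested.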

Other observations

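The counts of further gene groups stand beside 11.6% of all genes tested called lower and 12.9% called higher, and several lie near these shares. In B cell receptor signaling, 7 of 22 tested genes were lower in dCBP-1 and 3 were higher. The adaptor BLNK had 135, 128 and 121 normalized reads in dCBP-1 libraries and 671, 471 and 523 in A-485 libraries (-2.09 ± 0.18, limma adjusted p = 1.6e-10). The phosphatase PTPN6 differed by -1.82 ± 0.15, RASGRP3, which activates RAS, by -1.65 ± 0.13 and MALT1 by -0.86 ± 0.14. Among class IIa deacetylases and MEF2 factors, 5 of 14 were lower and 2 were higher (1 higher without dCBP-1 replicate 1 or 2, or without A-485 replicate 2 or 3). HDAC9 had 64.3, 75.9 and 58.1 in dCBP-1 libraries and 307, 295 and 273 in A-485 libraries (-2.13 ± 0.19), and MEF2C and HDAC4 differed by -1.84 ± 0.14 and -1.03 ± 0.21. Of 11 retinoid signaling genes, 3 were lower and 1, RDH11, was higher (0 without A-485 replicate 3). The receptor RARA had 90.3, 111 and 55.7 in dCBP-1 libraries and 721, 551 and 713 in A-485 libraries (-2.98 ± 0.23, limma adjusted p = 2.8e-11), and A-485 was below DMSO there by 1.25 (limma adjusted p = 0.0038).

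Of 35 interferon response genes, 9 were lower and 7 were higher in dCBP-1. IRF2, IFIT5 and IRF1 were lower by 2.12 ± 0.16, 1.34 ± 0.23 and 1.04 ± 0.13 on the log2 scale, and IRF7 was higher by 0.89 ± 0.15. Of 33 HIF targets, 9 were lower and 6 were higher. ANKRD37 had 27.9, 36.3 and 54.5 in dCBP-1 libraries and 223, 226 and 228 in A-485 libraries (-2.53 ± 0.23), NDRG1 differed by -1.31 ± 0.14 and PDK1, a mitochondrial kinase that inhibits pyruvate dehydrogenase, by -1.18 ± 0.14, while SLC2A3 was among the largest rises. Of 20 heat shock genes, 6 were higher (3 without dCBP-1 replicate 2) and 3 were lower (1 without dCBP-1 replicate 2, and 6 with TMM scaling). HSPA1B differed by 0.98 ± 0.15, HSP90AA1 by 0.83 ± 0.16, DNAJB1 by 0.71 ± 0.14 and HSPA4L by -0.63 ± 0.14. Of 22 tropomyosins and actin-binding genes, 7 were lower (3 without dCBP-1 replicate 3) and 3 were higher, with VIM at -1.25 ± 0.15 and TPM4 at -0.73 ± 0.14.

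Of 15 mitochondrially encoded genes, 1, MT-RNR1, was lower and 0 were higher (limma). The lower count was 0 to 3 over the alternatives, and 0 when dCBP-1 replicate 2, dCBP-1 replicate 3 or any of the 3 A-485 replicates was left out. Among markers of other cell types, HBB had 33.5, 26.7 and 37.9 in dCBP-1 libraries and 107, 119 and 150 in A-485 libraries (-1.91 ± 0.29, limma adjusted p = 8.1e-06), with HBA1, HBA2 and ALAS2 at 0 in all 6. KRT18 had 19.6, 17.0 and 24.9 in dCBP-1 libraries and 2.06, 8.26 and 0 in A-485 libraries (2.80 ± 0.73, limma adjusted p = 0.0048, and 0.051 without A-485 replicate 3), with KRT19, KRT5, CLDN4 and MUC1 at 0. GNLY had 1.86, 2.42 and 1.19 in dCBP-1 libraries and 9.25, 13.8 and 11.9 in A-485 libraries (limma adjusted p = 0.017, and not called without dCBP-1 replicate 3, A-485 replicate 2 or A-485 replicate 3). Fibroblast and stromal markers summed to 31.5 to 40.3 in dCBP-1 libraries and 28.8 to 41.3 in A-485 libraries.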
